A study of Mus musculus with 6 samples.

Results

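Gfap, Vim, S100b, Cd44, Apoe, Clu, Cst3, Sparcl1 and Serpine2 are 9 genes of astrocyte filaments, calcium binding, matrix adhesion and secreted proteins, several of which are widely used as signs of reactive astrocytes. They were taken by name, with earlier results of these data known. All 9 were found among the 32286 genes listed in single nuclei RNA sequencing (snRNAseq) of whole mouse cerebellum. The study compared 3 Pcp2-ATXN1[82Q] mice (SCA1), in which human ATXN1 with an expanded CAG repeat is driven in Purkinje cells by the Pcp2 promoter, with 3 wild-type (WT) mice whose strain is given as C57Bl6. The study describes the SCA1 line as backcrossed onto the same background and the WT mice as littermates. All 6 mice were 12 weeks old, each gave 1 library of nuclei from frozen or fresh cerebellum, and the labels do not say which tissue was frozen. In nuclei labelled Purkinje cells, human ATXN1 had 12, 15 and 19 unique molecular identifiers (UMIs, counted RNA molecules) in SCA1 mice 1 to 3 and 0 in each WT mouse, where a count of 0 (at most 3 UMIs, for counting error only) allows up to 0.926 to 3.62 counts per 1000000 UMIs (CPM).

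Gfap and vimentin assemble into the intermediate filaments of astrocytes, and both accumulate when astrocytes react to injury or disease. Apoe and Clu (apolipoprotein J) carry lipids between cells, Cst3 (cystatin C) inhibits cysteine cathepsins, Serpine2 (protease nexin-1) inhibits thrombin and plasminogen activators, and Sparcl1 (hevin) promotes the formation of synapses. The cerebellar cortex holds a pair of specialised astrocytes. Bergmann glia (BG) lie beside Purkinje cells and send radial fibres through the molecular layer, and velate astrocytes (VA) enfold the granule neurons in the layer beneath.

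The 45473 nuclei carried 24 cell type labels that the authors had assigned with SingleR. The 13 labels with at least 10 nuclei in every mouse were used, and 431 nuclei of the other 11 labels were left out of all tests. BG had 1243 nuclei (84 to 345 per mouse), VA 1014 (63 to 285), oligodendrocytes (OL) 1384 (103 to 357) and granule neurons 37532. UMIs per library ranged from 18916647 to 98366627 and median UMIs per nucleus from 2246.5 in WT mouse 2 to 7253 in WT mouse 1. The library numbers fall into 2 runs, here called batches, with SCA1 mouse 1 and WT mouse 1 in batch 1, and 254 barcodes occurred in more than 1 library.

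Several markers, but not all, separated the 2 astrocyte labels. The Bergmann glia genes Gdf10 and Gli1 had 122 and 99.3 CPM in BG against 10.1 and 6.89 in VA, whereas Aqp4 and Slc6a11 had 222 and 54.3 CPM in BG against 1151 and 282 in VA. Slc7a10, another velate astrocyte marker, had 166 CPM in BG and 167 in VA. Kcnk1 was higher in granule neurons (153 CPM) than in VA (104). Markers of neurons were present in both labels: the summed level of 5 granule neuron markers lay between 296 and 810 CPM in BG of SCA1 mice and between 249 and 899 CPM in BG of WT mice, and none of the 5 was at 0. The sum of 5 Purkinje cell markers in BG lay between 202 and 910 CPM in SCA1 and between 403 and 1750 CPM in WT mice. The sum of 7 Bergmann glia markers was lower in SCA1 mice, at 996 to 1165 against 1358 to 1595 CPM in BG and 297 to 331 against 353 to 378 CPM in VA, neither of which overlapped, and none of the 7 was at 0. Ptch1 alone had a mean of 804 CPM in BG and 274 CPM in VA. The 6 of the 7 markers tested in BG had a median log2 fold change of -0.51, and edgeR called 0 of them. Taken singly, 2 of these 6 in BG and 0 of the 4 tested in VA did not overlap (4.89% and 4.9% of all genes). The sum of 8 markers of all astrocytes was 6262 to 6801 against 6864 to 7388 CPM in BG. The sum of 4 choroid plexus markers in BG lay between 1.35 and 564 CPM in SCA1 and between 3.41 and 98.3 CPM in WT mice. In granule neurons it lay between 0.941 and 709.5 and between 5.85 and 129 CPM. The part of these levels in the genotype values of the 9 genes was not tested. The OL label also held the precursor marker Pdgfra, at 69.0 CPM against 2.87 in granule neurons. A further non-neuronal label named for Dcn and Nnat had Dcn at 374 and Slc6a13 at 410 CPM. It also had the velate astrocyte marker Gjb6 at 218 CPM, against 147 in VA.

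The promoters of Gfap, Vim and Serpine2 are shown because Gfap and Vim encode partners in 1 filament but only Gfap stood apart in an astrocyte label, and because Serpine2 in VA was the only pair of gene and label without overlap between genotypes in BG, VA, OL and granule neurons. Each sequence holds the 250 bases before the RefSeq transcription start on GRCm38.p6, read 5′ to 3′ on the strand of the gene, and capitals mark a TATA box (TATAAA) or a GC box (GGGCGG). The Gfap sequence is chr11:102897201-102897450 (minus strand), that of Vim is chr2:13574061-13574310 (plus strand) and that of Serpine2 is chr1:79858666-79858915 (minus strand). All 3 windows lie within the GENCODE gene intervals given below, which begin further upstream. Bases before those upstream ends were not searched.
Gfap: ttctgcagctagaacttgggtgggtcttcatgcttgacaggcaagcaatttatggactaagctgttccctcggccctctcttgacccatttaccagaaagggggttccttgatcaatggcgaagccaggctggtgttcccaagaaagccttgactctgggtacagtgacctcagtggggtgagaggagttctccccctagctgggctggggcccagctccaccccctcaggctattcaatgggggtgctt
Vim: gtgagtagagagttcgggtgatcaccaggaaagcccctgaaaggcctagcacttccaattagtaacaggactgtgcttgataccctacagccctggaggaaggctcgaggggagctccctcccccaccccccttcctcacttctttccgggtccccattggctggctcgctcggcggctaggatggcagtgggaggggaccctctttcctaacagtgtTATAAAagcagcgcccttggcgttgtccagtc
Serpine2: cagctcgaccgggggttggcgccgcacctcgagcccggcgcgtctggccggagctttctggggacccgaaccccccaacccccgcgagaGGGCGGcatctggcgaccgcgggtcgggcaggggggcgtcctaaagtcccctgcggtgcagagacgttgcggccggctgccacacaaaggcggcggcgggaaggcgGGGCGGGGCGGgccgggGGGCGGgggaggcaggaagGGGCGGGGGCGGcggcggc
Both strands were searched. Vim had 1 TATA box, 32 bases before the start, a motif held by 12.4% of 32851 mouse promoters of this length. Serpine2 had 6 GC boxes, 5 of them within 55 bases of the start and 2 of those overlapping, and 32.7% of promoters held at least 1. Gfap had neither motif in this window. The STAT motif TTCNNNGAA (7.02% of promoters) and the AP-1 motif TGANTCA (6.75%) were found in none of the 3 sequences.

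Gfap marked velate astrocytes. The gene (chr11:102887336-102900912, minus strand, GRCm38) had 94.0, 140.2 and 211 CPM as the lowest, median and highest of the 6 mice in VA, and 9.46, 25.8 and 51.9 CPM in BG. These ranges did not overlap, and Gfap was 3.01 to 22.3 times higher in VA than in BG of the same mouse. The lowest BG value, that of WT mouse 2, rests on 5 UMIs. BG, at 29.0 ± 19.0 CPM (SD, n = 6), overlapped the Dcn-Nnat label (24.7 ± 19.1) and granule neurons (17.7 ± 14.3), the next in order. Within mice, however, BG was above granule neurons in 6 of 6, by 1.21 to 2.65 times, and above the Dcn-Nnat label in 2 of 6. Vim (chr2:13573927-13582826, plus strand) did not mark either astrocyte. It was highest in the Dcn-Nnat label (109 ± 51.9 CPM), and BG (70.9 ± 38.5) and VA (64.8 ± 39.7) differed by less than their spread, with VA above BG in 1 of 6 mice. Both astrocytes were above granule neurons (38.0 CPM) of the same mouse in 6 of 6 mice, although the ranges overlapped.

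S100b, which encodes a calcium-binding protein, did not set any of the 13 labels apart from the next in order. The gene (chr10:76253853-76261159, plus strand, overlapping Dip2a on the other strand) had 283.5 ± 111.5 CPM in BG, 239 ± 107 in OL, 231 ± 114.5 in VA and 168 in granule neurons, and the ranges of neighbours in this order overlapped. VA was below BG in 6 of 6 mice, at 0.541 to 0.954 of the BG level. BG was also above OL and granule neurons in 6 of 6 mice. Labels far apart in the order did separate, as the lowest BG mouse (135 CPM) lay above the highest Purkinje cell mouse (69.4 CPM). Cd44, the hyaluronan receptor (chr2:102811141-102901665, minus strand), stood apart in VA. It had 80.5 to 143 CPM in VA, against 24.3 ± 7.75 in the Dcn-Nnat label, 16.5 ± 8.24 in BG and 4.26 in granule neurons, and no VA value overlapped that of the other 12 labels used. VA held 29.3% of the Cd44 UMIs of the 13 labels with 2.25% of their nuclei.

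The lipid carriers were highest in VA in each mouse when both astrocytes were compared. Apoe (chr7:19696109-19699188, minus strand) had 2189 ± 1042 CPM in VA and 1357 ± 764 in BG, followed by 1034 in the Dcn-Nnat label, 585 in OL and 488 in granule neurons. Its VA to BG ratio lay between 1.36 and 2.18 in the 6 mice, although the ranges over mice overlapped. Clu (chr14:65968483-65981547, plus strand) had 384 ± 190 CPM in VA, 159 in the Dcn-Nnat label, 152 in BG and 92.3 in granule neurons, with a VA to BG ratio of 2.03 to 4.28.

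Among the protease inhibitors, Serpine2 separated VA from the other 12 labels used and Cst3 did not. Serpine2 (chr1:79794197-79861180, minus strand) had 252 to 342 CPM in VA and 64.0 to 129 CPM in BG, which did not overlap, and 47.8 ± 18.5 CPM in OL and 18.1 in granule neurons. Cst3 (chr2:148871722-148875692, minus strand) had 544 ± 277 CPM in VA, 319 ± 152 in the Dcn-Nnat label, 310 in BG, 224 in OL and 218 in granule neurons. Every neighbouring pair in that order overlapped, although VA exceeded BG in 6 of 6 mice by 1.35 to 4.67 times.

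Sparcl1 had the reverse order of the 2 astrocytes. The gene (chr5:104079111-104113733, minus strand, overlapping a transcript on the other strand) had 1528 ± 159.5 CPM in BG and 1209 ± 135 in VA, and VA was at 0.722 to 0.888 of BG in 6 of 6 mice. The Dcn-Nnat label came next at 261 ± 118 CPM, and its highest mouse lay below the lowest VA mouse, 1024 CPM. Levels across labels are described without a test, since SingleR labels were assigned from expression in the same nuclei.

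**Figure D1:**
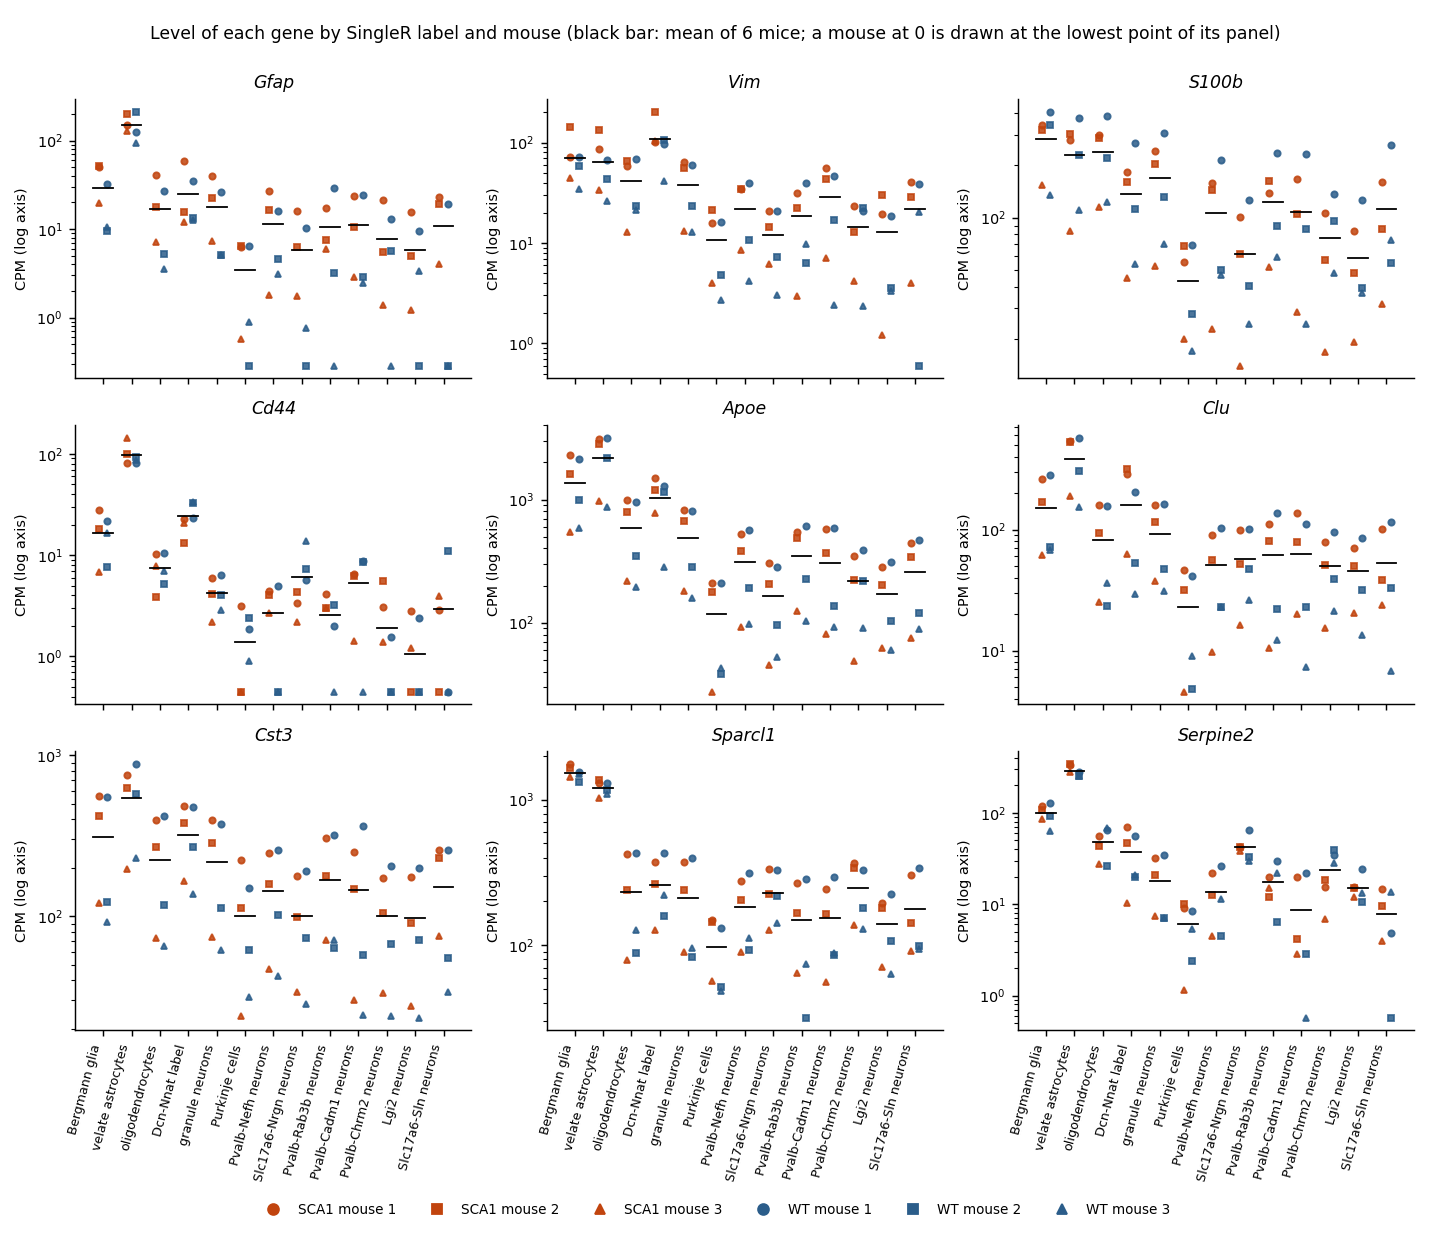
CPM (log axis) of each gene in the 13 labels, 1 point per mouse (SCA1 orange, WT blue; shapes are mice 1 to 3) and a black bar at the mean of 6 mice. Gfap, Cd44 and Serpine2 stand apart in velate astrocytes, Sparcl1 in both astrocyte labels, and no label stands apart for Vim or S100b. A mouse with a count of 0 is drawn at the bottom of its panel.

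All 9 genes also had UMIs in neurons. In the 9 neuronal labels, whose median depth ran from 5923 (granule neurons) to 36466.5 UMIs per nucleus (Purkinje cells), Apoe varied only between 2.88 and 4.14 UMIs per nucleus, Gfap between 0.109 and 0.153 and S100b between 1.12 and 1.50. Vim ran from 0.191 to 0.364 and Clu from 0.601 to 1.18 UMIs per nucleus. For these 5 genes the highest neuronal label thus had 1.34 to 1.96 times the UMIs per nucleus of the lowest. Cst3 spanned 2.39-fold, Sparcl1 3.18-fold, Cd44 5.58-fold and Serpine2 9.29-fold, with the highest Serpine2 in neurons labelled Slc17a6-Nrgn (0.891 UMIs per nucleus).

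The UMIs per nucleus seen in granule neurons came to a different share of each astrocyte value. In VA they equalled 3.85% of the Cd44, 5.90% of the Serpine2, 11.9% of the Gfap and 16.8% of the Sparcl1 UMIs per nucleus, but 53.6% of Vim and 66.4% of S100b. In BG they equalled 11.5% of Sparcl1, 15.3% of Serpine2, 19.0% of Cd44 and 28.4% of Apoe, and between 44.4% and 54.8% of the other 5 genes. In OL they equalled 98.9% of Gfap, 103% of Clu and 92.1% of Cst3, but 36.4% of Serpine2, 51.4% of Cd44 and 68.5% of S100b. For Apoe, Vim and Sparcl1 in OL the share was 79.4% to 87.1%. Granule neurons, 83.3% of the nuclei, held 48.1% to 77.5% of each gene's UMIs.

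**Figure D2:**
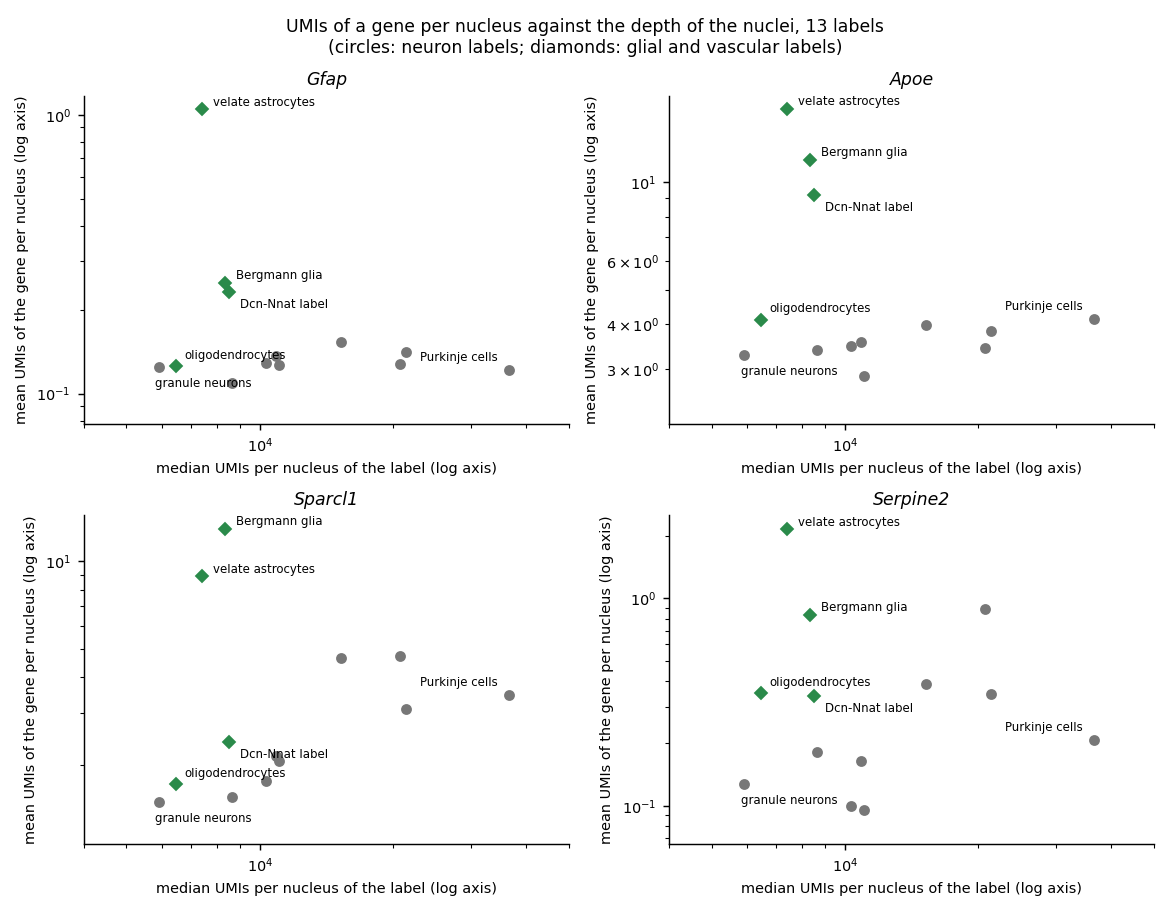
UMIs per nucleus of Gfap, Apoe, Sparcl1 and Serpine2 (mean of 6 mice) against the median UMIs per nucleus of each label, with neuronal labels as grey circles and other labels as diamonds. Apoe and Gfap form a nearly flat line across neuronal labels from 5923 to 36466.5 UMIs, and velate astrocytes lie above it with 15.97 Apoe and 1.046 Gfap UMIs per nucleus.

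Many of the 9 genes varied together between mice of 1 genotype. SCA1 mouse 3 was the lowest SCA1 mouse for 9 of 9 genes in BG, 8 in VA and 9 in granule neurons, and WT mouse 3 was the lowest WT mouse for 6, 7 and 6 of them. In granule neurons mouse 1 exceeded mouse 3 by 2.78 to 5.41 times in SCA1 and by 2.23 to 6.10 times in WT mice. In VA the same ratio was 1.18 and 1.33 for Gfap, 1.202 and 1.09 for Serpine2 and 0.562 and 0.949 for Cd44, but 3.80 and 3.85 for Cst3. In VA SCA1 mouse 2, not mouse 1, was the highest SCA1 mouse for 5 of 9 genes. Such variation was not limited to the 9 genes. Over 18032 genes in granule neurons, deviations from the group means had r = 0.872 between SCA1 mouse 3 and WT mouse 3. The share of all genes lowest in mouse 3 was not computed. Mitochondrial UMIs were 3.29%, 1.98% and 0.630% in SCA1 mice 1 to 3 and 4.53%, 1.61% and 0.740% in WT mice 1 to 3, and their part in the levels was not tested.

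SCA1 and WT mice were then compared within each label, to ask whether these genes differ in glia of mice whose Purkinje cells carry the transgene. UMIs were summed per mouse and label and tested with edgeR for genotype with batch as a term. At an adjusted p of at most 0.05 none of the 9 genes was called in BG, VA, OL or granule neurons, where 0%, 0%, 0.00866% and 0.00547% of all genes tested were called. DESeq2 called none of the 9 in these labels either, and 0.017%, 0%, 0.00866% and 0.0821% of all genes. At an unadjusted p under 0.05, edgeR passed Gfap in BG (1.81% of all genes) and in granule neurons (1.82%), and none of the 9 in VA (1.1%) or OL (0.849%). By CPM, 1 of the 9 genes in VA and 0 in BG, OL and granule neurons had 3 SCA1 mice on one side of 3 WT mice, against 4.9% (VA), 4.89% (BG), 3.92% (OL) and 2.93% (granule neurons) of all genes tested. The study itself had singled out Gfap, Vim, Cd44, Apoe, Clu, Cst3, Sparcl1 and Serpine2 in these mice, so their direction here is not independent evidence.

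Gfap had the largest fitted difference of the 9 genes in BG. Its level was 50.5, 51.9 and 19.6 CPM in SCA1 mice 1 to 3 and 31.9, 9.46 and 10.7 CPM in WT mice 1 to 3. SCA1 mouse 3 lay below WT mouse 1, so that the groups overlapped. The fitted log2 fold change was 1.14 (SE 0.378), and edgeR's adjusted p was 0.99993 over 11752 genes. Within batch the log2 ratio was 0.66 in batch 1 and 1.83 in batch 2. WT mice 2 and 3, the WT mice of batch 2, had only 5 and 9 Gfap UMIs in BG.

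Gfap had the same fitted value in granule neurons, which as neurons do not build Gfap filaments. There it had 40.1, 22.5 and 7.40 CPM in SCA1 and 26.4, 5.05 and 5.06 CPM in WT mice, which again overlapped, with a log2 fold change of 1.14 (SE 0.369, edgeR adjusted p = 0.99973). In OL the log2 fold change was 0.88 (SE 0.413). With a mouse left out these ranged from 0.61 to 1.45 in granule neurons and from 0.61 to 1.50 in OL. In VA, where Gfap is highest, the levels were 152, 201 and 128 CPM in SCA1 and 125, 211 and 94.0 CPM in WT mice. WT mouse 2 was the highest of the 6 there by CPM, on 83 UMIs, but the lowest by UMIs per nucleus (0.709). The log2 fold change in VA was 0.16 (SE 0.291), and ranged from -0.06 to 0.51 with a mouse left out.

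Vim showed higher means in SCA1 in both astrocytes, OL and granule neurons without passing the test. In VA it had 85.9, 132 and 33.9 CPM in SCA1 and 67.5, 43.2 and 26.3 CPM in WT mice, a log2 fold change of 0.83 (SE 0.415, edgeR adjusted p = 0.99969). SCA1 mouse 3 lay among the WT mice, although each SCA1 mouse was above the WT mouse of the same number, and with a mouse left out the log2 fold change ranged from 0.22 to 1.24. In BG it had 72.6, 143 and 44.6 CPM in SCA1 and 71.9, 58.7 and 34.3 CPM in WT mice, a log2 fold change of 0.57 (SE 0.383), and the 2 batches gave log2 ratios of 0.01 and 1.01. The log2 fold change in BG ranged from -0.01 to 0.93 with a mouse left out. Granule neurons had nearly the same fitted value as BG, 0.58 (SE 0.451), and OL had 0.27 (SE 0.467).

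S100b and Cd44 showed no difference beyond the spread between mice in BG and VA. S100b had log2 fold changes of -0.14 (SE 0.333) in BG and -0.05 (SE 0.398) in VA. Its range in BG ran from 155 to 343 CPM in SCA1 and from 135 to 407 CPM in WT mice. Cd44 in VA, its main label, had 80.5, 101 and 143 CPM in SCA1 and 82.0, 94.1 and 86.5 CPM in WT mice. SCA1 mouse 3 was the highest and SCA1 mouse 1 the lowest of the 6, and the log2 fold change was 0.25 (SE 0.261), or 0.01 to 0.44 with a mouse left out. In BG the Cd44 value was 0.10 (SE 0.400), on 217 UMIs in all.

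Mice of the same number were also compared in VA and granule neurons, although no label pairs them. There 2 (Vim and Serpine2) and 4 (Gfap, Vim, Apoe and Cst3) of the 9 genes were higher in SCA1 in 3 of 3 same-numbered pairs. Of all genes tested, 24.5% in VA and 28.3% in granule neurons moved 1 way in all 3 pairs. BG and OL were left out of this comparison, and no share of all genes was computed there. By CPM, Gfap, Vim and Cst3 in BG were also higher in SCA1 in each same-numbered pair. In OL this held for Gfap and Apoe.

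The lipid carriers Apoe and Clu overlapped between genotypes in all 4 labels. Apoe in BG had 2288, 1604 and 539.6 CPM in SCA1 and 2130.1, 995 and 587 CPM in WT mice, and in VA 3120.3, 2834.5 and 977 against 3161, 2166 and 874 CPM. SCA1 mouse 3 was below all 3 WT mice in BG, and the log2 fold changes were 0.25 (SE 0.368) in BG, 0.19 (SE 0.414) in VA, 0.56 (SE 0.424) in OL and 0.57 (SE 0.447) in granule neurons. Clu had log2 fold changes of 0.33 (SE 0.332) in BG and 0.37 (SE 0.367) in VA, and of 0.48 in OL and 0.57 in granule neurons.

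Cst3 had unlike fitted values in the 2 astrocytes, neither past the test. In BG it had 555, 418 and 122 CPM in SCA1 and 548, 123 and 92.4 CPM in WT mice, a log2 fold change of 0.78 (SE 0.406, edgeR adjusted p = 0.99993). SCA1 mice 1 and 2 and WT mouse 1 were high and the other 3 mice low, and the within-batch log2 ratios were 0.02 and 1.33. With a mouse left out the log2 fold change in BG ranged from 0.10 to 1.21. In VA the values were 749.97, 628 and 197 CPM in SCA1 and 883, 575 and 229 CPM in WT mice, with a log2 fold change of -0.08 (SE 0.395). In granule neurons it was 0.66 (SE 0.450).

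Serpine2 in VA was the only one of the 9 genes whose genotypes did not overlap in BG, VA, OL or granule neurons. It had 335, 342 and 279 CPM in SCA1 and 278, 252 and 256 CPM in WT mice. The lowest SCA1 mouse and the highest WT mouse, 279 and 278 CPM, were nearly level, and the log2 fold change was 0.25 (SE 0.236, edgeR adjusted p = 0.99969). It was 0.27 and 0.29 within the 2 batches. In BG the log2 fold change was 0.09 (SE 0.232) and in OL -0.45 (SE 0.321). In granule neurons it was 0.53 (SE 0.36), above the value in VA, with overlap between genotypes.

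Sparcl1 had log2 fold changes of 0.08 (SE 0.270) in BG, where leaving out a mouse gave 0.01 to 0.20, and 0.03 (SE 0.268) in VA. In BG its levels were 1751, 1655 and 1417 CPM in SCA1 and 1544, 1311 and 1489 CPM in WT mice. The highest 2 values were from SCA1 mice, and SCA1 mouse 3 lay below WT mice 1 and 3.

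**Figure D3:**
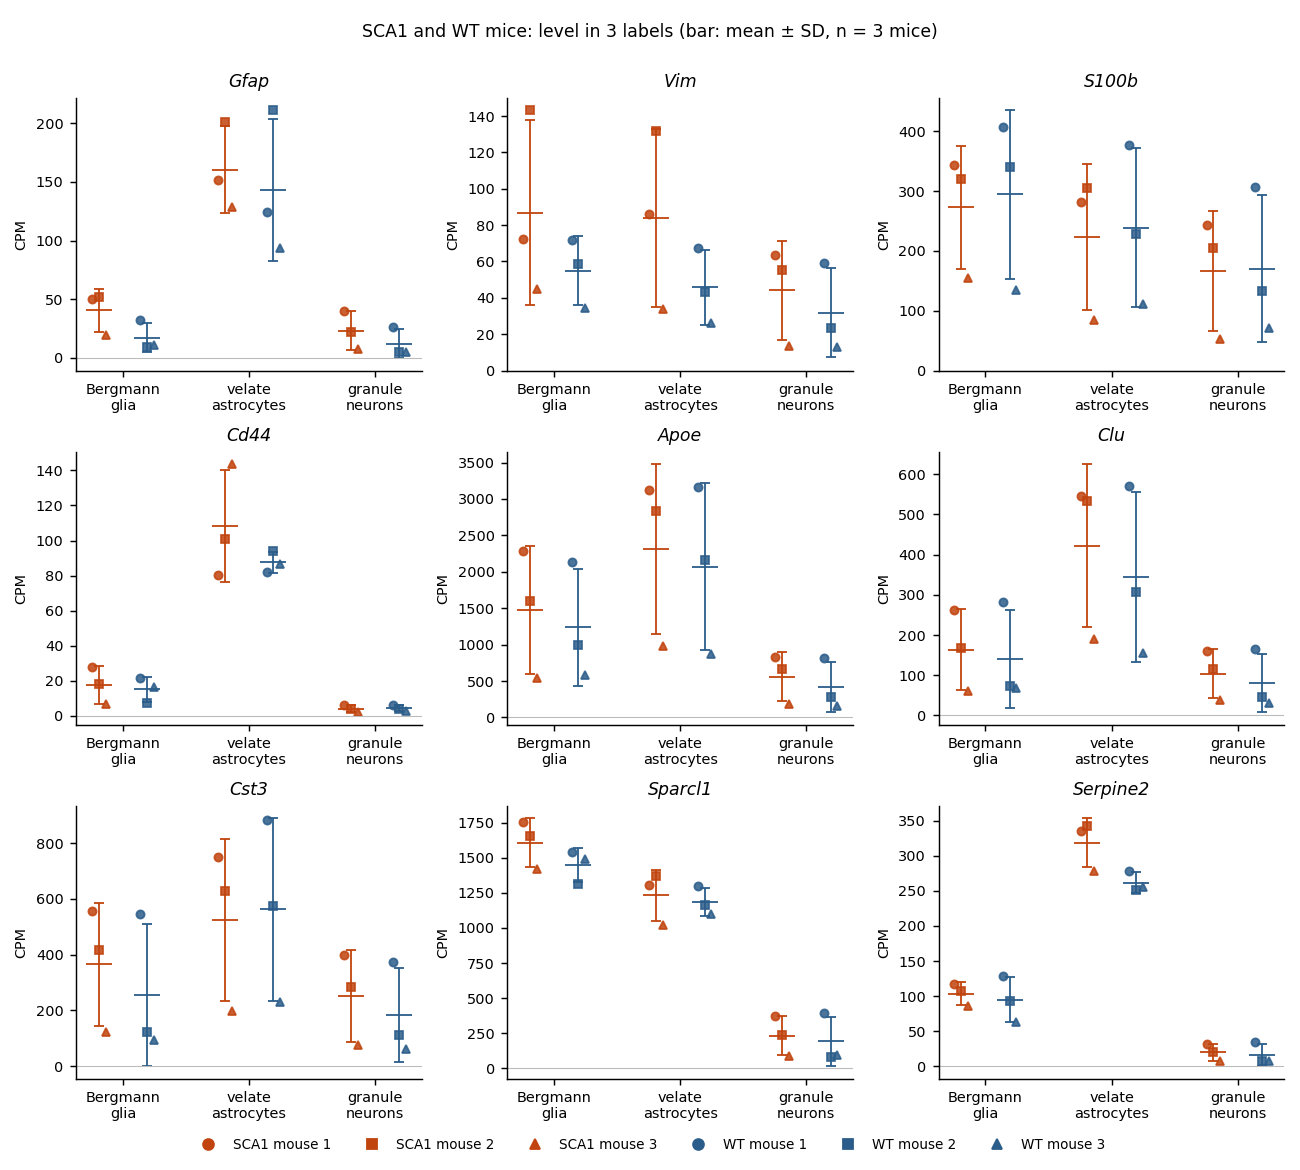
CPM of each gene in Bergmann glia, velate astrocytes and granule neurons, 1 point per mouse (SCA1 orange, WT blue; shapes are mice 1 to 3), with the mean and SD of 3 mice. Only Serpine2 in velate astrocytes has every SCA1 mouse above every WT mouse (279 to 342 against 252 to 278 CPM), and triangles, the third mice, tend to lie lowest.

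**Figure D4:**
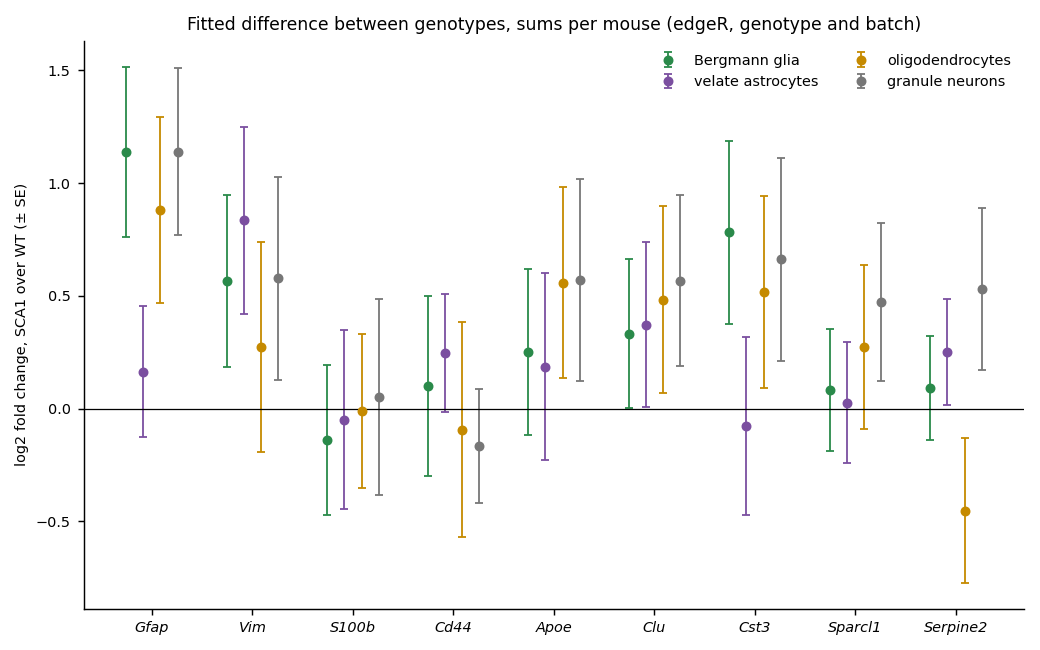
Fitted log2 fold change (SCA1 over WT, edgeR) with its SE for each gene in 4 labels. Gfap is at 1.14 in Bergmann glia and granule neurons and at 0.16 in velate astrocytes, and Cst3 at 0.78 and -0.08 in Bergmann glia and velate astrocytes.

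The difference between labels was tested directly with a label by genotype term and mouse as a term. At an adjusted p of at most 0.05 none of the 9 genes was called between BG and VA (0% of genes tested), BG and granule neurons (0.0117%) or VA and granule neurons (0%), and DESeq2 called none of the 9 (0%, 0.0117% and 0% of all genes). At an unadjusted p under 0.05, Gfap and Cst3 passed between BG and VA (3.42% of all genes) and between VA and granule neurons (2.59%), and none of the 9 between BG and granule neurons (2.4%). The BG log2 fold change exceeded that of VA by 0.75 (SE 0.289) for Gfap and by 0.70 (SE 0.195) for Cst3, with adjusted p = 0.99998 for both. With a mouse left out this difference ranged from 0.49 to 1.44 for Gfap and from 0.42 to 1.08 for Cst3. Gfap was no longer under an unadjusted p of 0.05 without WT mouse 2 (0.49), nor without the label by batch term (0.60). With genes of low count kept in, Cst3 passed in edgeR (0.72, adjusted p = 0.01041), as did 0.0685% of all genes. For VA against granule neurons the difference was -0.77 (SE 0.255) for Gfap and -0.62 (SE 0.183) for Cst3. Without WT mouse 2 these were -0.36 and -0.39, and neither was under an unadjusted p of 0.05. Gfap was also not under it without the label by batch term (-0.71). A replicate block paired mice of equal number, which no label states, and had no batch term. With it the Cst3 difference was -0.60 (SE 0.1285) and passed in edgeR at an adjusted p of 0.00478. Gfap stayed above the threshold at 0.0653, and 0.119% of all genes passed. Gfap passed instead without SCA1 mouse 1 (-1.17, edgeR adjusted p = 0.0289), without SCA1 mouse 3 (-0.92, 0.0440) or without WT mouse 1 (-1.17, 0.0251), where 0.129%, 0.078% and 0.135% of all genes passed. Between BG and granule neurons the difference for Gfap was 0.17 (SE 0.275) and for Cst3 0.16 (SE 0.204).

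Levels were also set above those of granule neurons, by subtracting the granule neuron UMIs per nucleus of the same mouse, a measure chosen after the levels were seen. Gfap in BG then had 18.1, 35.6 and 14.5 CPM in SCA1 and 9.47, 6.27 and 6.96 CPM in WT mice. Before subtraction WT mice 2 and 3 held only 5 and 9 Gfap UMIs there. The groups no longer overlapped, and the exact two-sided permutation p was 0.1, the smallest that 3 against 3 mice allow (adjusted p = 1.00 over 27 tests). Serpine2 in VA had 308, 325 and 273 CPM in SCA1 and 244, 247 and 250 CPM in WT mice, with the same exact p of 0.1. These were the only 2 of 27 pairs of gene and label (BG, VA and OL) that did not overlap, against 8.05%, 8.27% and 9.07% of all genes in BG, VA and OL. Cst3 in BG had 233, 212 and 70.7 against 228, 52.2 and 47.4 CPM and overlapped. In OL the Gfap level above granule neurons lay between -1.62 and 2.29 CPM.

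**Figure D5:**
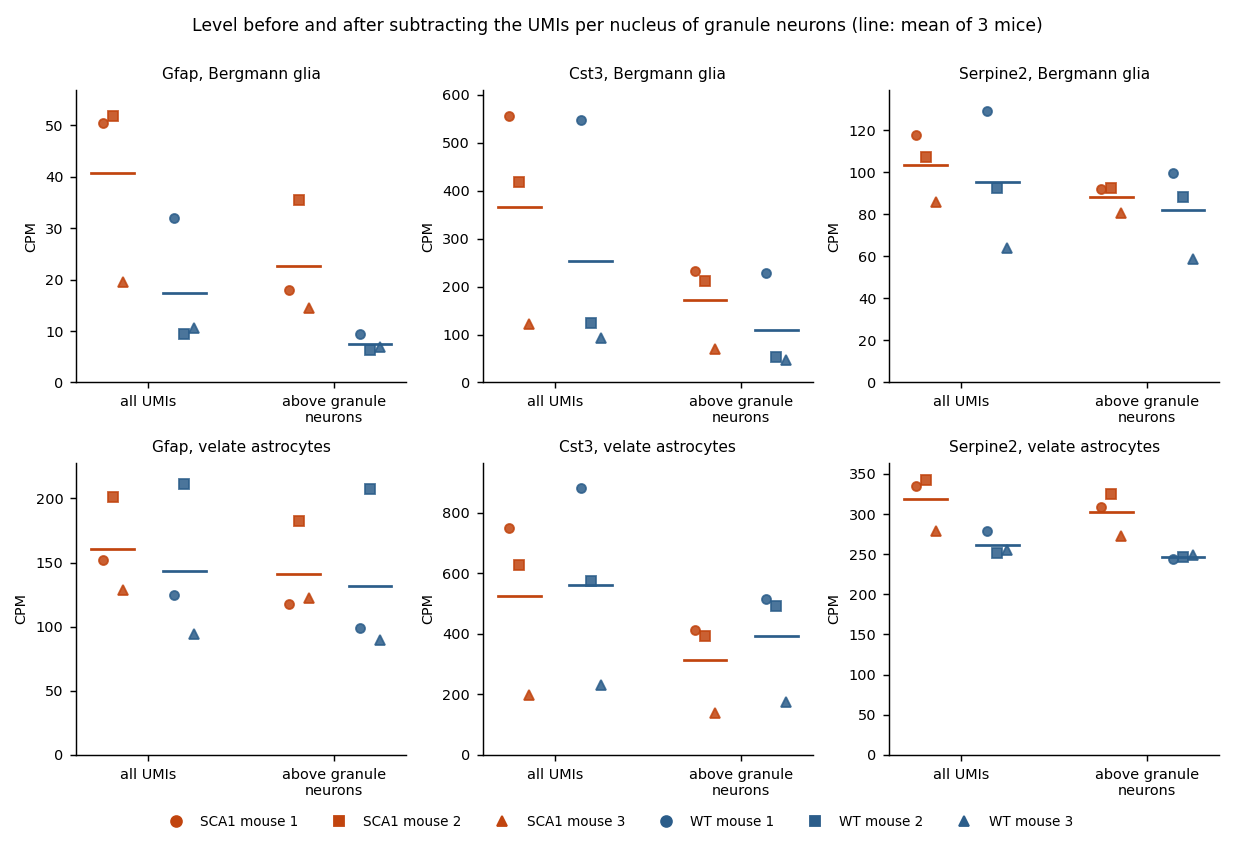
CPM of Gfap, Cst3 and Serpine2 in Bergmann glia (upper panels) and velate astrocytes (lower panels), from all UMIs and after subtracting granule neuron UMIs per nucleus of the same mouse, 1 point per mouse and a line at the mean of 3. Gfap in Bergmann glia separates the genotypes only after subtraction (14.5 to 35.6 against 6.27 to 9.47 CPM), as do or remain 8.05% of all genes there. The subtraction was chosen after the levels were seen.

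Which genes overlapped changed when single mice were left out. Without SCA1 mouse 3, 6 of 27 pairs did not overlap, namely Gfap, Vim and Sparcl1 in BG and Vim, Sparcl1 and Serpine2 in VA, where 11.6% of all genes tested in these 3 labels did not overlap. Over the 6 omissions 1 to 6 pairs did not overlap, and 8.41% to 18.6% of all genes. Without WT mouse 1 there were 3 (18.6% of all genes), Gfap in BG and OL and Serpine2 in VA. Without WT mouse 2 there were also 3 (10.2% of all genes), Gfap and Serpine2 higher in SCA1 VA and Serpine2 lower in SCA1 OL. The fitted log2 fold change of Gfap in BG stayed between 0.72 and 1.68 over the 6 omissions, and that of Serpine2 in VA between 0.21 and 0.30.

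The study tested nuclei rather than mice, and a test on nuclei was run for comparison with limma-trend. It took nuclei by label alone, whereas the study also took them by cluster, and 1126 of the 1243 BG nuclei carry the commonest label of their cluster. It called 5 genes in BG (1.99% of all genes were called), namely Gfap (log2 difference 0.16), Vim (0.16), Apoe (0.18), Cst3 (0.38) and Sparcl1 (0.19). It called 3 in VA (0.856%), namely Vim (0.20), Clu (0.25) and Serpine2 (0.27), and 2 in OL (0.921%), namely Apoe (0.35) and Cst3 (0.20). All 10 were higher in SCA1. Nuclei of 1 mouse are not independent, so these calls measure the spread between nuclei.

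The share of nuclei with at least 1 UMI gave no separation between genotypes when each nucleus was thinned to 3000 UMIs. In BG, 10.6% ± 4.25 of SCA1 and 5.38% ± 3.20 of WT nuclei (SD, n = 3 mice) had a Gfap UMI, against 6.82% and 3.61% of granule neurons. Before thinning the BG shares were 22.95% and 12.4%. In VA the Gfap shares were 28.3% ± 5.50 and 22.5% ± 3.61, and the Serpine2 shares 57.5% ± 3.61 and 51.6% ± 3.82, against 5.75% and 4.69% of granule neurons. Cd44 was found in 23.2% and 21.1% of VA and in 1.19% and 1.21% of granule neurons. Of the 18 pairs of gene and label in BG and VA, 0 did not overlap (5.4% and 5.37% of all genes), and the exact permutation p was at least 0.2 for each (adjusted, at least 0.969). With a mouse left out 0 to 8 of the 18 did not overlap (9.58% to 22.7% of all genes), 8 of them without SCA1 mouse 3 (12.8%), and at 1500 UMIs 1 did not (5.28%). Median UMIs per nucleus before thinning were 8341 in BG, 7411.5 in VA and 5923 in granule neurons, and nuclei under 3000 UMIs were left out, 16 and 56 BG and 23 and 67 VA of SCA1 and WT mice.

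In the remaining 9 labels edgeR called none of the 9 genes and 0% of all genes tested, and DESeq2 called none of the 9 and 0.0783% of all genes, 65 of its 66 calls being in Purkinje cells. Over all 13 labels 102 of the 117 pairs of gene and label passed the filter on low counts. Of these 102 pairs 4 did not overlap by CPM, against 5.58% of all genes tested, and the other 15 overlapped. At an unadjusted p under 0.05, edgeR passed 3 pairs in these 9 labels (2.33% of all genes), 1 each in labels where 1.18% (Slc17a6-Nrgn), 2.31% (Pvalb-Chrm2) and 2.2% (Dcn-Nnat) of all genes passed. Cd44 in Slc17a6-Nrgn neurons had 3.35, 4.35 and 2.19 CPM in SCA1 and 5.65, 7.30 and 13.8 CPM in WT mice, on 82 UMIs in all, with a log2 fold change of -1.40 (SE 0.479). Serpine2 in Pvalb-Chrm2 neurons had 15.4, 18.3 and 6.95 CPM in SCA1 and 34.8, 39.2 and 28.6 CPM in WT mice, with a log2 fold change of -1.26 (SE 0.399). All SCA1 mice were below all WT mice for both, and the second rests on 109 UMIs and on 21 to 81 nuclei per mouse, of which 38 of 263 carry the commonest label of their cluster. Clu in the Dcn-Nnat label had 291, 315 and 63.4 against 203, 52.7 and 29.2 CPM and overlapped (log2 fold change 1.47, SE 0.578, and 0.58 to 2.29 with a mouse left out). The fourth pair without overlap was Cd44 in the Dcn-Nnat label, with 22.5, 13.1 and 20.6 CPM in SCA1 and 23.4, 32.9 and 33.4 CPM in WT mice (-0.60, SE 0.507).

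Around the 9 genes, 12 lists of related genes were examined, some of which hold the same genes, and none of their members was called by edgeR in BG, VA or granule neurons. Of 13 pan-reactive astrocyte genes 5 passed the filter in BG with a median log2 fold change of 0.28 and 4 in VA with 0.21, while the medians of all genes tested were near 0. The pan-reactive list includes Gfap, Vim and Cd44 themselves. The 4 tested A1 genes had a median of 0.04 in BG, and the 2 tested A2 genes 0.02. Medians in BG were 0.25 for intermediate filaments (8 of 11 tested), 0.18 for hyaluronan and lecticans (8 of 15), 0.07 for lipoprotein handling (11 of 13), 0.23 for cystatins and cathepsins (9 of 14), 0.11 for the serine protease system (4 of 11), 0.03 for synapse-modifying proteins (8 of 13), -0.14 for S100 proteins (6 of 9), 0.03 for regulators of the Gfap promoter (11 of 13) and 0.01 for homeostatic astrocyte genes (10 of 10). In granule neurons the medians lay between -0.12 (hyaluronan and lecticans, 13 tested) and 0.37 (intermediate filaments, 11), and those of pan-reactive genes (9) and of cystatins and cathepsins (14) were 0.32 and 0.27.

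Of the list members tested, 5 of 80 in BG, 4 of 75 in VA and 0 of 123 in granule neurons did not overlap between genotypes, against the 4.89%, 4.9% and 2.93% of all genes given above. In BG, Tnc, the matrix glycoprotein tenascin C, had 81.9, 87.0 and 152 CPM in SCA1 and 188, 325 and 422 CPM in WT mice. It was lower in all SCA1 mice, with a log2 fold change of -1.54 (SE 0.299, edgeR adjusted p = 0.99993). Synm, a filament partner of vimentin, had a log2 fold change of -0.80 (SE 0.446) and at most 9.47 CPM. Among lipoprotein genes the cholesterol exporter Abca1 had 155, 166 and 199 against 103, 146 and 109 CPM (0.50, SE 0.233). Il6st, the signal-transducing receptor shared by cytokines that act through STAT3, had 72.9, 66.5 and 80.4 against 57.7, 43.5 and 55.7 CPM (0.41, SE 0.240). In VA, besides Serpine2, the potassium channel Kcnj10 had 87.8, 56.8 and 63.7 CPM in SCA1 and 100.3, 96.6 and 105 CPM in WT mice (-0.56, SE 0.246), the cathepsin Ctso 0.39 (SE 0.241) and the neurotrophin Bdnf -0.53 (SE 0.378). None passed the adjusted test.

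The profile of each gene across the 13 labels was compared with those of 7260 genes, over the WT means of log2(CPM + 1), as a description in which all labels share the same 3 libraries. Gfap was most like Cst3 (Pearson r = 0.954) and Cyp26b1 (0.938), and Cst3 like Cyp26b1 (0.967) and Gfap. Serpine2 was most like Fads2 (0.955) and Cacng4 (0.9497), Clu like Vcl (0.927) and Fads2 (0.925), and Cd44 like Pdgfrl (0.914) and Rapgef3 (0.892). Sparcl1 was most like Trps1 (0.959) and Tom1l1 (0.957), Apoe like Ndrg2 (0.967) and Chd4 (0.965), Vim like Crebbp (0.969) and Sparc (0.965), and S100b like Mt3 (0.939).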

How the data were processed

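Nuclei of 6 cerebella were sequenced on the 10x Genomics platform, 1 library per mouse. The authors aligned reads, introns included, with Cell Ranger (4.0.0, 5.0.1 and 6.0.1 are named in the submitters' processing notes) to the mm10 genome extended by human ATXN1, removed debris with DIEM, and assigned labels with SingleR (R 4.1.0, Seurat 4.0.4). The deposited values are raw UMI counts per gene and nucleus. No doublets were removed here, and free RNA was not corrected.

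Counts were summed per mouse and label, for labels with at least 10 nuclei in every mouse, and tested in R 4.3.3 with edgeR 4.0.16 (quasi-likelihood test, TMM, filterByExpr with minimum count 10 and total 15, genotype and batch, Benjamini-Hochberg over all genes tested, adjusted p at most 0.05). Replicates are mice, and p-values measure the spread between 3 mice per genotype. Batch was read from library numbers. No label pairs the mice. Same-numbered mice were paired in velate astrocytes (r of their deviations from group means 0.693, 0.133 and 0.587) and granule neurons (r = 0.897, 0.3503 and 0.872). This choice was made from these same data. In velate astrocytes SCA1 mouse 2 had a higher r with WT mouse 1 (0.154) than with WT mouse 2. The study's limma test on nuclei (limma 3.58.1, scran 1.30.0) and DESeq2 1.42.0 were alternatives. CPM are counts per 1000000 UMIs of a sum. Shares of nuclei are exact expected shares after thinning to 3000 UMIs, tested with an exact two-sided permutation test (smallest p 0.1). Fits were tested on simulated data. The 9 genes are always named, and of each list those called, or else the 2 with the largest fold change among those without overlap between genotypes, and the 2 genes of most similar profile, of which a few are not reported here. The members and lists were chosen with earlier results of these data known. Sequences and coordinates are from RefSeq (GRCm38.p6) and GENCODE, and 7 of the 9 genes had a promoter entry.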

Additional observations from a re-analysis of the deposited data

Results flagged for a closer look

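Serpine2 lay on opposite sides in 2 labels. Its 3 SCA1 mice were all above the 3 WT mice in velate astrocytes, where the log2 fold change was 0.25 (SE 0.236, edgeR adjusted p = 0.99969), and all below them in Pvalb-Chrm2 neurons, where it was -1.26 (SE 0.399, edgeR adjusted p = 0.99980). The difference between these 2 labels was not tested, and neither value passed the adjusted test. These are 2 of the 4 pairs of gene and label, of 102 tested, whose genotypes did not overlap, against 5.58% of all genes tested. Serpine2 had 2364 UMIs in velate astrocytes and 109 in Pvalb-Chrm2 neurons. In velate astrocytes the lowest SCA1 and highest WT mouse, 279 and 278 CPM, were nearly level. Shares of these nuclei with a Serpine2 UMI overlapped between genotypes at 3000 UMIs. Of the 263 Pvalb-Chrm2 nuclei 38 carry the commonest label of their cluster.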

How the results depend on the processing

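Each log2 fold change of the 9 genes in Bergmann glia, velate astrocytes, oligodendrocytes and granule neurons (36 results) was recomputed under the alternatives, 567 values in all. Of these, 503 kept their direction and side of the threshold, 54 changed sign (43 with a mouse left out) and 10 passed only in the test on nuclei. Calls moved from 0 to 5 (Bergmann glia), 3 (velate astrocytes) and 2 (oligodendrocytes) in that test. With no filter the Bergmann glia against velate astrocyte term called 1 gene (Cst3), and 0.0685% of all genes. For velate astrocytes against granule neurons the replicate block called 1 (0.119% of all genes) and leaving out a mouse 0 to 1 (0% to 0.181%). The replicate block changed no other call. The r of the deviations of same-numbered mice was 0.742, 0.0513 and 0.594 in Bergmann glia and 0.731, 0.0892 and 0.585 in oligodendrocytes. These values are close to those in velate astrocytes. SCA1 mouse 1 and WT mouse 1 also share batch 1, and no label states a pairing. At 1500 UMIs 1 of 18 shares did not overlap (5.28% of all genes), and with a mouse left out 0 to 8 (9.58% to 22.7% of all genes), 8 without SCA1 mouse 3 (12.8%). By CPM 2 of 27 pairs did not overlap after subtraction and 1 to 6 with a mouse left out (8.41% to 18.6% of all genes). With a mouse left out, values in Bergmann glia ranged from -0.26 to 0.55 (Apoe), -0.15 to 0.46 (Cd44), -0.15 to 0.61 (Clu), -0.43 to 0.23 (S100b), -0.04 to 0.24 (Serpine2) and -0.01 to 0.93 (Vim). In velate astrocytes they ranged from -0.33 to 0.55 (Apoe), -0.15 to 0.64 (Clu), -0.62 to 0.29 (Cst3), -0.06 to 0.51 (Gfap), -0.69 to 0.25 (S100b) and -0.06 to 0.10 (Sparcl1). In oligodendrocytes they ranged from -0.14 to 0.87 (Apoe), -0.30 to 0.07 (Cd44), -0.11 to 0.85 (Clu), -0.17 to 0.87 (Cst3), -0.45 to 0.23 (S100b), -0.65 to 0.02 (Serpine2), -0.26 to 0.57 (Sparcl1) and -0.41 to 0.73 (Vim). In granule neurons they ranged from -0.10 to 0.86 (Apoe), -0.34 to 0.01 (Cd44), -0.0027 to 0.88 (Clu), -0.04 to 0.96 (Cst3), -0.63 to 0.36 (S100b), -0.0041 to 0.75 (Sparcl1) and -0.15 to 0.89 (Vim). On nuclei of at least 3000 UMIs the sign changed for S100b (0.06) and Sparcl1 (-0.0026) in velate astrocytes, S100b (0.06) and Cd44 (0.02) in oligodendrocytes and Cd44 (0.0021) in granule neurons. It also changed for Cst3 in velate astrocytes on nuclei (0.12), S100b in oligodendrocytes by library size only (0.04) and without a filter (0.01), and S100b in granule neurons by limma-trend (-0.08), without batch (-0.07) and with the replicate block (-0.09). The causes were not tested. In Bergmann glia Cd44 had 217 UMIs (SE 0.400) and Gfap 386 (SE 0.378), against 18540 for Apoe (SE 0.368).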

Other observations

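The 3 largest labels with too few nuclei for a test held high levels of some of the genes, given here pooled over the 6 mice with no error. In the microglia label, with 125 nuclei and as few as 8 in a mouse, Apoe had 2806 CPM and Cst3 1281 CPM, beside the microglial markers Cx3cr1 at 797 and C1qa at 511 CPM. In the endothelial Flt1-Lrg1 label, with 89 nuclei, Vim had 351 CPM (3.61 UMIs per nucleus) and Sparcl1 960.0 CPM, beside Flt1 at 3403 and Cldn5 at 1307 CPM. In the choroid plexus label, with 83 nuclei, Clu had 685 CPM (7.81 UMIs per nucleus), Apoe 1978 CPM and Serpine2 239 CPM. That label had Ttr at 6685 CPM but also the astrocyte gene Aqp4 at 331 CPM, against 222 CPM in Bergmann glia.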
